A study of Mus musculus with 17 samples.

Results

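Mitochondrial ribosomal proteins are the protein parts of the ribosome that works inside mitochondria, and their genes, named Mrpl and Mrps, lie in the nucleus. Genes were taken by symbol, as Mrpl or Mrps followed by a number, from a table of RNA counts of sorted mouse myeloid cells. They numbered 68 of the 10207 rows that carry a gene symbol, and no expression value entered the choice. By name 42 are Mrpl and 26 Mrps genes. Since the products of Mrps18a and Mrps30 sit in the large subunit, 44 belong to the large and 24 to the small subunit. Of the 68 genes, 62 passed the filter on low counts and could be tested, among 7518 genes in all. All cells came from female BALB/c mice, and 3 groups of sorted cells are compared. BMDM_T cells (4 libraries) were CD11b+ Gr+ F4/80low cells from the leg bone marrow of mice that had received 100000 4T1-luc cells, a luciferase-carrying mouse mammary carcinoma line, in a mammary fat pad, with a label age of 8 weeks. BMDM_H cells (4 libraries) came through the same gate from the marrow of healthy mice with no injection, with a label age of 12 weeks. TAM (3 libraries) were CD11b+ Gr- F4/80+ macrophages from the tumors of injected mice, taken at a tumor size of 1 cm, with a label age of 8 weeks. The tumor and the label age cannot be told apart between BMDM_T and BMDM_H, and tissue, gate and digestion of the tissue cannot be told apart between TAM and marrow. Between TAM and BMDM_H the tumor and the label age differ as well and cannot be told apart from these. The model is 1 tumor cell line in 1 mouse strain, and the labels do not say whether mice were pooled or whether replicates are separate mice.

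The mitochondrial ribosome translates only the few membrane proteins of the respiratory chain that mitochondrial DNA encodes, so its output feeds oxidative phosphorylation. Its RNAs are made in the mitochondrion, whereas every protein part is translated in the cytosol, imported and assembled onto that RNA. The large subunit forms the peptide bond and the small subunit reads the messenger RNA. Many parts descend from bacterial ribosomal proteins, and others were gained in the mitochondrial lineage. Macrophages and neutrophils are known to differ in how far they rely on mitochondria, neutrophils being largely glycolytic.

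Libraries were made from the 3' ends of polyadenylated RNA, so a transcript gives reads from its end and counts were not divided by length. Total counts were 931278 to 1218977 in BMDM_T, 387940 to 1286844 in BMDM_H and 1748338 to 3747929 in TAM, and the 10 genes with the most counts took 20.3 to 22.6%, 20.6 to 25.3% and 14.3 to 14.8% of them. Levels are CPM, the usual depth-scaled unit of counts, on library totals scaled with TMM factors. The 6 libraries of a second batch were not used by gene, because their rows do not follow the symbols (Spearman correlation with the first batch -0.018 to 0.002 in 66 pairs of libraries, against 0.726 to 0.971 in 55 pairs within the first batch). The labels call both marrow groups monocytes. In the files 11 neutrophil genes summed to 138090 to 211956 CPM in the 8 marrow libraries, against 1360 to 3718 CPM for 8 monocyte genes. In TAM the neutrophil genes summed to 353 to 582 CPM and 11 macrophage genes to 60117 to 74160 CPM, against 2158 to 3737 CPM in marrow. Each TAM comparison is therefore one of macrophages with sorted cells rich in neutrophil RNA. Fewer cells of a type and less RNA per cell cannot be told apart in such bulk libraries.

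TAM against BMDM_T compares tumor macrophages with marrow cells of mice that also carried a tumor. Mitoribosomal genes were not lowered or raised as a block. By edgeR's quasi-likelihood test (adjusted p under 0.05 over all 7518 genes), 21 of the 62 tested members were higher in TAM, 5 were lower and 36 did not pass. Of all genes tested 58.9% were called, 30.1% higher and 28.7% lower. Members were thus called higher at 33.9%, a share near that of all genes, and lower at 8.06%, a share below it. The median log2 fold change was 0.41 over the members and 0.03 over all genes tested, and the members ran from -1.89 to 1.47. The estimate, called or not, was above 0 for 43 members, where 50.9% of all genes were above 0. Of the 21 higher members 20 had no overlap between the libraries of TAM and BMDM_T, as had 2094 of the 2266 genes called higher. Of the 5 lower ones 4 had none, as had 1953 of the 2160 genes called lower. Over all genes tested 27.9% were called higher and 26% lower with no overlap. By the rule for naming, rises and falls were taken from called members without overlap, so their lack of overlap comes from the choice.

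Mrpl33 fell the furthest. Its product is a small protein of the large subunit with a bacterial homolog, and its gene took the most counts of all members in each of the 8 marrow libraries. It stood at 483, 505, 434 and 409 CPM in BMDM_T replicates 1 to 4, at 344, 344, 392 and 354 CPM in BMDM_H, and at 111, 120 and 138 CPM in TAM. All 3 TAM libraries lay far below all 8 marrow libraries, and the BMDM_T libraries lay above those of BMDM_H. The log2 fold change was -1.89 ± 0.16 (SE) against BMDM_T (adjusted p = 4.23e-09 by edgeR, 3.70-fold lower) and -1.53 ± 0.16 against BMDM_H (adjusted p = 1.02e-07 by edgeR).

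Mrpl52 went the other way. Its product is a large-subunit protein with no bacterial homolog. It stood at 189, 241, 205 and 212 CPM in BMDM_T, at 138, 154, 154 and 130 CPM in BMDM_H, and at 533, 426 and 566 CPM in TAM. The 3 groups did not overlap, with BMDM_H lowest and TAM highest, and Mrpl52 took the most counts of all members in each of the 3 TAM libraries. Its log2 fold change was 1.26 ± 0.16 (SE) against BMDM_T (adjusted p = 7.6e-07 by edgeR, 2.4-fold higher) and 1.81 ± 0.16 against BMDM_H (adjusted p = 8.43e-09 by edgeR). The ratio of Mrpl52 to Mrpl33 counts needs no scaling between libraries. It was 0.368 to 0.449 in BMDM_H, 0.392 to 0.519 in BMDM_T and 3.54 to 4.80 in TAM. This pair was singled out after its values were seen, so the ratio is a description with no test.

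**Figure D1:**
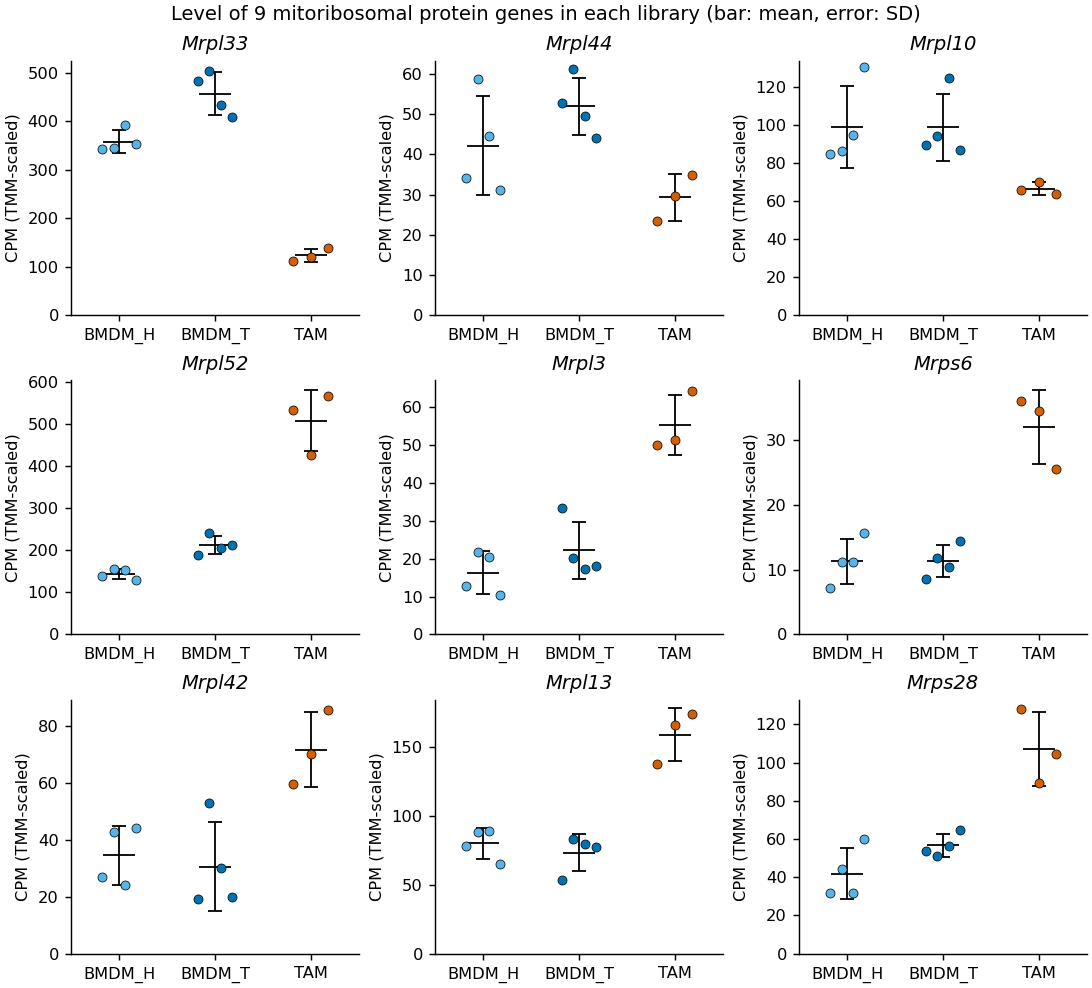
Level of 9 mitoribosomal protein genes in each library, in CPM on TMM-scaled totals, for BMDM_H (4 libraries), BMDM_T (4) and TAM (3). Points are libraries, the long bar is the mean and the error bar the SD. The TAM points of Mrpl33, Mrpl44 and Mrpl10 lie below those of BMDM_T, and those of the other 6 genes lie above both marrow groups.

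Besides Mrpl52, the largest rises were in Mrps6, Mrpl3, Mrpl42, Mrpl13, Mrpl55 and Mrps28. Mrpl3, whose bacterial homolog lies near the site of peptide bond formation, had 33.4, 20.2, 17.3 and 18.04 CPM in BMDM_T, 12.7, 21.7, 20.5 and 10.4 CPM in BMDM_H and 50.0, 51.4 and 64.4 CPM in TAM. Its log2 fold change was 1.33 ± 0.25 (SE; adjusted p = 0.000127 by edgeR). Mrps6, a small-subunit protein with a bacterial homolog, had 8.61, 11.8, 10.4 and 14.4 CPM in BMDM_T, 7.16, 11.3, 11.2 and 15.6 CPM in BMDM_H and 36.1, 34.5 and 25.6 CPM in TAM. With 1.47 ± 0.27 (adjusted p = 0.000106 by edgeR) it had the largest rise among the members, on 47 counts over the 4 BMDM_T libraries and 229 in TAM. In both genes every TAM library lay above every marrow library.

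Mrpl13, a large-subunit protein with a bacterial homolog, had 53.8, 83.2, 79.7 and 77.6 CPM in BMDM_T, 78.0, 88.5, 89.3 and 65.1 CPM in BMDM_H and 138, 166 and 174 CPM in TAM. The marrow groups overlapped and TAM lay above both (log2 fold change against BMDM_T 1.11 ± 0.17 SE, adjusted p = 1.42e-05 by edgeR). Mrpl42, a part with no bacterial homolog, had 19.4, 52.9, 30.0 and 19.8 CPM in BMDM_T, 27.1, 42.6, 24.2 and 44.2 CPM in BMDM_H and 59.5, 70.0 and 85.6 CPM in TAM. Although its marrow libraries were widely spread, none reached a TAM library (1.22 ± 0.28, adjusted p = 0.000897 by edgeR). Mrps28, a small-subunit protein, had 53.8, 51.3, 56.6 and 64.9 CPM in BMDM_T, 31.8, 44.2, 31.6 and 59.9 CPM in BMDM_H and 128, 89.1 and 104 CPM in TAM (0.91 ± 0.20, adjusted p = 0.000462 by edgeR). Mrpl55, a large-subunit part, was at 26.9, 46.2, 35.8 and 24.4 CPM in BMDM_T and 62.8, 55.2 and 83.8 CPM in TAM (1.02 ± 0.25, adjusted p = 0.00165 by edgeR). It also had 49.3, 54.7, 61.4 and 23.4 CPM in BMDM_H, which overlap TAM.

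Mrpl46, a large-subunit part with no bacterial homolog, was higher by 0.90 ± 0.24 (SE; adjusted p = 0.00311 by edgeR), but TAM replicate 1 at 38.9 CPM lay within the BMDM_T range of 29.1 to 40.3 CPM, while the other TAM libraries had 78.0 and 82.7 CPM. It shares its start region head to head with Mrps11, a small-subunit gene, and in GRCm38 the annotated genes overlap (Mrpl46 at chr7:78775236-78783531, minus strand, and Mrps11 at chr7:78783119-78792989, plus strand). Mrps11 did not pass, with a log2 fold change of 0.00 and means of 65.9 CPM in BMDM_T and 66.2 CPM in TAM. The difference between Mrpl46 and Mrps11 was not tested. Mrps2, a small-subunit protein with a bacterial homolog, was called higher on few counts, from 6.84 ± 1.67 CPM (SD, n = 4) to 12.6 ± 1.80 CPM (n = 3), with a log2 fold change of 0.89 ± 0.35 (SE; adjusted p = 0.0359 by edgeR). Its call was lost in 8 of the 20 alternative settings, among them the replicate block (adjusted p = 0.120 by edgeR) and single libraries left out (BMDM_T replicates 1, 3 and 4 and TAM replicates 2 and 3, up to an adjusted p = 0.121).

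Below Mrpl33, the lower members changed by small steps. Mrpl44, a large-subunit protein with a ribonuclease-like fold, had 52.8, 61.4, 49.6 and 44.2 CPM in BMDM_T and 23.3, 29.7 and 34.9 CPM in TAM, with no overlap (-0.81 ± 0.23 SE, adjusted p = 0.00453 by edgeR). In BMDM_H it had 34.2, 58.7, 44.6 and 31.2 CPM, of which the lowest overlap TAM. Mrpl10, which anchors the stalk of the large subunit that binds translation factors, had 89.4, 94.1, 125 and 86.6 CPM in BMDM_T, 84.4, 86.1, 94.8 and 130 CPM in BMDM_H and 65.6, 70.0 and 63.3 CPM in TAM (-0.57 ± 0.18, adjusted p = 0.0105 by edgeR). Every TAM library lay below every marrow library, yet with total counts as the scaling the adjusted p was 0.0554. Mrps21, a small-subunit protein, went from 41.4 ± 5.62 CPM (SD, n = 4) in BMDM_T to 28.9 ± 3.15 CPM (n = 3) in TAM (log2 fold change -0.51 ± 0.20 SE, adjusted p = 0.0370 by edgeR), and the call was lost in 7 of 20 alternatives. Mrpl18, whose bacterial homolog binds ribosomal RNA of the large subunit, is named after its values were seen. It passed narrowly (-0.44 ± 0.18, adjusted p = 0.0451 by edgeR) with overlapping libraries, and the call was lost in 8 of 20 alternatives. The count of 5 lower members became 3 without BMDM_T replicate 2 or without TAM replicate 1, and 2 with total counts as the scaling.

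**Figure D2:**
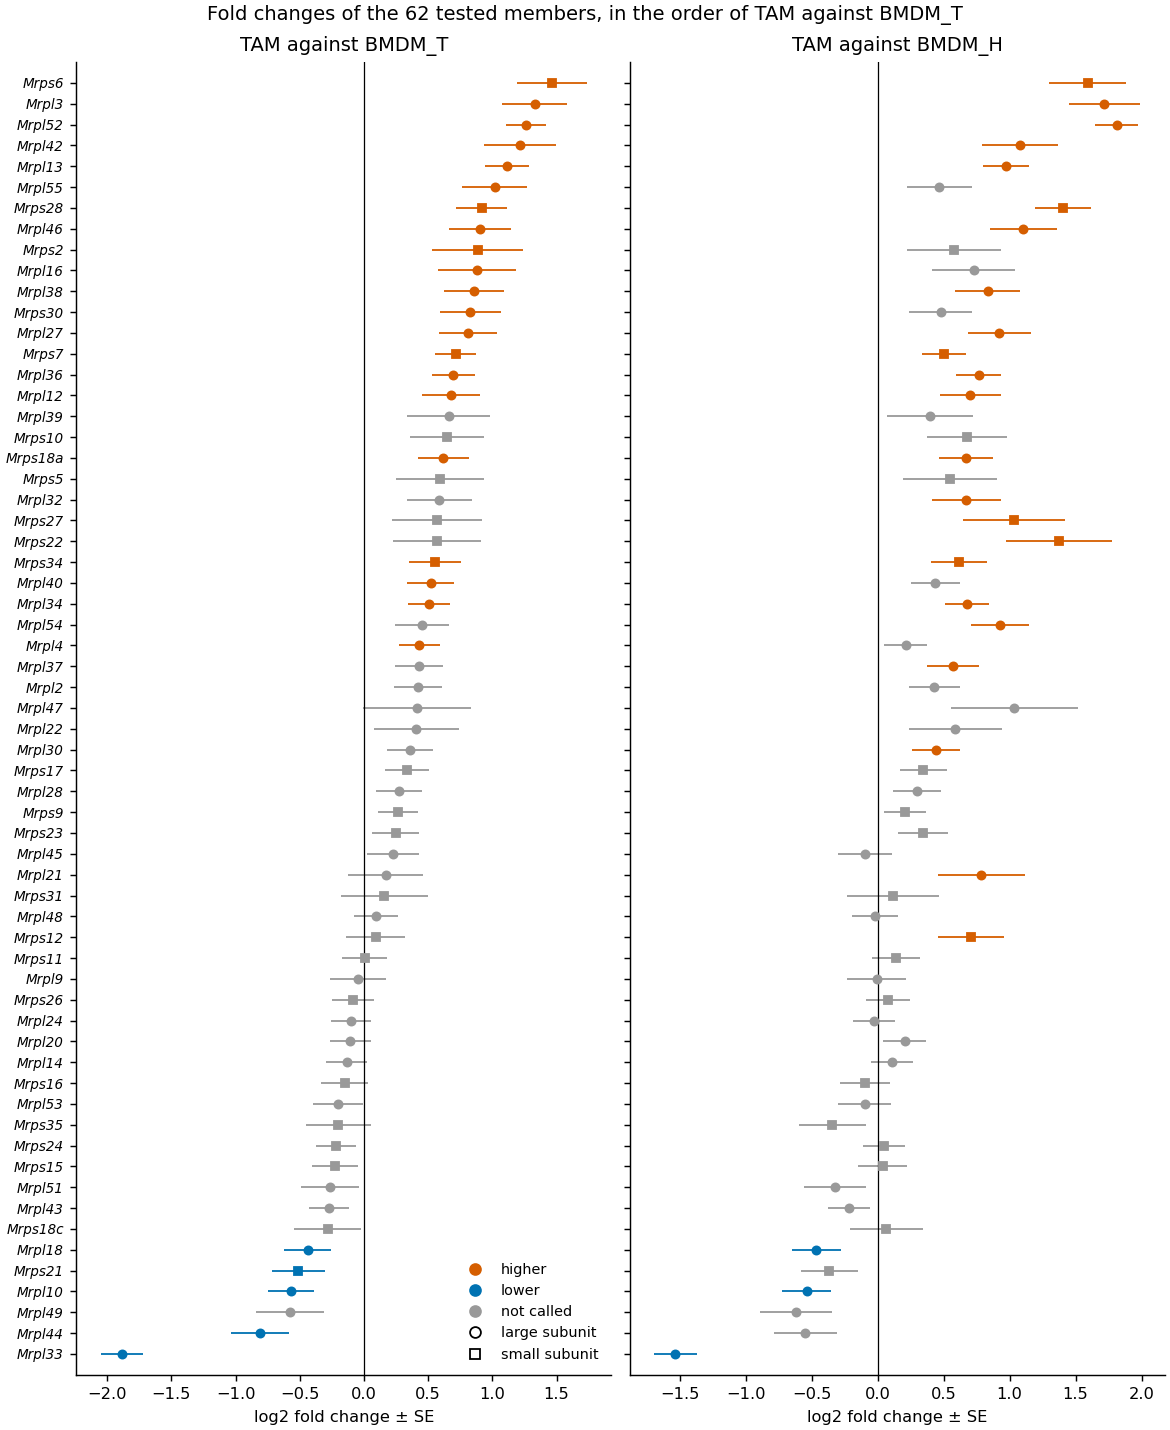
Log2 fold change ± SE of the 62 tested members in TAM against BMDM_T (left) and TAM against BMDM_H (right), in the order of the left panel, so the TAM libraries enter both. Color gives the call, circles are large-subunit and squares small-subunit genes. Mrpl33 stands alone at the lower end in both panels, and Mrps6, Mrpl3 and Mrpl52 lead the upper end on the left.

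The start regions of the members with the largest changes between TAM and BMDM_T (the falls Mrpl33 and Mrpl44, the rises Mrps6, Mrpl3 and Mrpl52) are printed so that opposite changes can be set beside the DNA at the start sites. Each runs from 250 bases before to 20 bases after the RefSeq start on GRCm38.p6, all on the plus strand (Mrpl33 chr5:31613701-31613970, Mrpl44 chr1:79775768-79776037, Mrps6 chr16:92058086-92058355, Mrpl3 chr9:105053018-105053287 and Mrpl52 chr14:54426659-54426928). Capitals mark a match, on either strand, to 1 of 4 letter strings known from promoters of mitochondrial genes. These are the ETS (GABPA) core CCGGAAG, the NRF1 core GCATGCGC, the YY1 core AAGATGGC and the E-box CACGTG, none of which contains another.
Mrpl33: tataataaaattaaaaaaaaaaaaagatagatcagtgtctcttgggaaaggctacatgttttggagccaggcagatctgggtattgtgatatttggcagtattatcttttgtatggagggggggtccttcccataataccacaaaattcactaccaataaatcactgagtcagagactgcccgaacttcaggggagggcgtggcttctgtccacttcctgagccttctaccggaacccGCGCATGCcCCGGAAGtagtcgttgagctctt
Mrpl44: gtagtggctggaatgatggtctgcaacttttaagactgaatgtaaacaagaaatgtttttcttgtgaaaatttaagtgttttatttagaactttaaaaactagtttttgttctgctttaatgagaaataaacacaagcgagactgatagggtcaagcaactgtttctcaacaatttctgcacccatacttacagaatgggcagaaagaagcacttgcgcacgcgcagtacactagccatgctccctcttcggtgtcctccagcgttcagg
Mrps6: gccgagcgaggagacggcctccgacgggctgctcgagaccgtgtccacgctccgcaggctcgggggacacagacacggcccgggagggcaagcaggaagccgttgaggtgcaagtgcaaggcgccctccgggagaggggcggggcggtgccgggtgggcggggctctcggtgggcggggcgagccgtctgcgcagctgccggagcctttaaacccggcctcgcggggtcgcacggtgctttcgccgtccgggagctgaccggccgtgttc
Mrpl3: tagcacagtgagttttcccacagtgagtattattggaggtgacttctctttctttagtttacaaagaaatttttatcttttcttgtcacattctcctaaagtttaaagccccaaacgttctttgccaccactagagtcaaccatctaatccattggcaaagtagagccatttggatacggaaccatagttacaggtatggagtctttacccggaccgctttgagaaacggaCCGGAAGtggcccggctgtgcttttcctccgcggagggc
Mrpl52: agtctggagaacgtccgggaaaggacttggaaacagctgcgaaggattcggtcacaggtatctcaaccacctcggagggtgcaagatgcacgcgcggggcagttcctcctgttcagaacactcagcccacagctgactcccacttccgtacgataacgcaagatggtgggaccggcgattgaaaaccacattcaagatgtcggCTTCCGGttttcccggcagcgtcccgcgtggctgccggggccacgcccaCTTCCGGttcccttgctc
Mrpl33 held an ETS core and an NRF1 core close to its start, Mrpl3 held 1 ETS core, and Mrpl52 held 2 ETS cores. No exact match lay in the Mrpl44 and Mrps6 windows, which says only that these letters are not in them. Near variants were not counted, such as gcacgcgc, close to the NRF1 core, in the Mrpl44 and Mrpl52 windows. The RefSeq starts of Mrpl33, Mrps6 and Mrpl3 lie inside the genes as GENCODE draws them, which begin further upstream, by far the most for Mrpl33.

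RefSeq promoter windows of this length were matched for 60 of the 68 members, giving 66 windows. Of these 28.8% held the ETS core, against 16.5% of 10050 windows of all genes with a row and 8.08% of all 32851 windows in the table. The NRF1 core stood in 9.09% (4.79% and 2.51%), the YY1 core in 7.58% (2.76% and 1.92%) and the E-box in 10.6% (9.54% and 6.57%). Counted by gene, so that a gene with several windows counts once, the E-box was in 8.33% of members and 11.4% of genes with a row, the reverse order, while the other 3 strings kept theirs (ETS core 31.7% and 19.6%, NRF1 core 10% and 5.65%, YY1 core 8.33% and 3.4%). Split by the call in TAM against BMDM_T, the ETS core was present in 5 of 16 higher members with a window, in 2 of 5 lower ones and in 12 of 34 that did not pass. The NRF1 core was present in 0 of 16, 2 of 5 and 4 of 34. These are counts of letter matches in few genes, described with no test.

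In the genome, the members lie on 17 chromosomes, 10 of them on chromosome 11, and all 68 are protein-coding genes in GENCODE M21. Mrpl33 spans chr5:31596935-31664384, Mrpl52 chr14:54426909-54429756, Mrpl3 chr9:105053239-105079888, Mrps6 chr16:92058270-92112227 and Mrpl44 chr1:79776018-79781445, all on the plus strand of GRCm38. An overlapping protein-coding gene was annotated for 24 members, and 31 overlapped no gene of any type. The strand setting of the counting is not given, so reads of opposite overlapping genes may not be told apart. Rbks, which overlaps Mrpl33 on the other strand, had means of 34.1, 26.2 and 26.3 CPM in BMDM_H, BMDM_T and TAM. Mrps6 overlaps Slc5a3 and Gm49711 on its own strand, neither of which has a row, so its counts are uncertain. Mtbp overlaps Mrpl13, and Wdfy1 overlaps Mrpl44, both on the opposite strand and at means of at most 12.0 CPM. Other called members overlap genes at higher levels than Mtbp and Wdfy1. Ndufs6, opposite to Mrpl36, had means of 368, 432 and 389 CPM in BMDM_H, BMDM_T and TAM, against 64.6, 68.1 and 110 CPM for Mrpl36, which was called higher against both marrow groups. Tcp1, opposite to Mrpl18, had 65.2, 75.4 and 104 CPM, against 95.2, 94.4 and 69.0 CPM for Mrpl18. Mrps34, called higher at 39.9, 40.5 and 59.6 CPM, overlaps Nme3 on its own strand (87.9, 83.6 and 66.4 CPM) and Mapk8ip3 on the other. Opposite to Mrps7 lie Gga3 and Mif4gd, at 42.1 to 78.1 CPM. Mrps11, opposite to Mrpl46, had 60.9, 65.9 and 66.2 CPM, against 29.8, 35.8 and 66.5 CPM for Mrpl46. Eme1, opposite to Mrpl27, had 13.2, 18.4 and 4.45 CPM, and Rsph9, opposite to Mrps18a, had 8.23, 12.4 and 1.62 CPM. The values of these members are thus uncertain as well. No protein-coding gene overlaps Mrpl52, Mrpl3, Mrpl42 or Mrpl55.

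TAM against BMDM_H compares the same 3 TAM libraries with marrow cells of healthy mice, so it shares TAM with the comparison above. Of the 62 tested members 23 were higher, 3 lower and 36 did not pass, where 28% of all genes tested were called higher and 28.3% lower (56.3% in all). The median log2 fold change was 0.44 over the members and 0.02 over all genes, and 47 members had an estimate above 0 (50.6% of all genes). Of the 23 higher members 20 had no overlap, as had 1884 of the 2103 genes called higher. Of the 3 lower ones 2 had none, as had 1839 of the 2127 genes called lower. Over all genes tested 25.1% were called higher and 24.5% lower with no overlap. The largest rises were Mrpl52 (1.81 ± 0.16 SE), Mrpl3 (1.72 ± 0.27, adjusted p = 1.88e-05 by edgeR), Mrps6 (1.59 ± 0.29, adjusted p = 0.000105 by edgeR) and Mrps28 (1.41 ± 0.21, adjusted p = 1.04e-05 by edgeR). Mrpl46 (1.10 ± 0.25), Mrpl42 (1.08 ± 0.29) and Mrpl13 (0.97 ± 0.18) were called higher as well. The 3 lower members were Mrpl33, Mrpl10 (-0.54 ± 0.19, adjusted p = 0.0190 by edgeR) and Mrpl18 (-0.46 ± 0.19, adjusted p = 0.0403 by edgeR). The Mrpl10 call was lost without BMDM_H replicate 4 (adjusted p = 0.0552 by edgeR), without TAM replicate 3 (0.0586) and without both BMDM_H libraries with the lowest totals (0.128).

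Of the low-count parts with no bacterial homolog, Mrps22 and Mrps27, both of the small subunit, were called in this comparison, Mrps27 being of the pentatricopeptide repeat type that binds RNA. Mrps22 had 4.78, 5.63, 9.30 and 5.20 CPM in BMDM_H, 9.69, 16.0, 9.24 and 6.31 CPM in BMDM_T and 11.1, 12.7 and 21.2 CPM in TAM. TAM lay above BMDM_H, while BMDM_T overlapped both (1.37 ± 0.40 SE against BMDM_H, adjusted p = 0.00637 by edgeR). Without TAM replicate 3 the adjusted p was 0.0677. Mrps27 was 1.03 ± 0.39 higher than in BMDM_H (adjusted p = 0.0275 by edgeR), on 22 counts in BMDM_H and 96 in TAM, and its call was lost in 4 of 20 alternatives, up to an adjusted p = 0.140. Those were DESeq2, BMDM_H replicate 3 left out, TAM replicate 1 left out, and both BMDM_H libraries with the lowest totals left out. Against BMDM_T neither gene passed (0.57 ± 0.35 for each), and for both the difference between the marrow groups did not pass either (adjusted p = 0.354 and 0.643 by edgeR).

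Against both marrow groups 15 members were called higher, which is 15 of 21 and 15 of 23. They were Mrpl3, Mrpl12, Mrpl13, Mrpl27, Mrpl34, Mrpl36, Mrpl38, Mrpl42, Mrpl46, Mrpl52 and Mrps18a of the large subunit and Mrps6, Mrps7, Mrps28 and Mrps34 of the small one. Mrpl10, Mrpl18 and Mrpl33 were called lower against both (3 of 5 and 3 of 3). Both comparisons use the same TAM libraries, so the overlap is no independent repeat. The share of all genes called against both marrow groups is not given here, so the overlap cannot be read as particular to the members. Calls against BMDM_T alone covered Mrpl4, Mrpl16, Mrpl40, Mrpl55, Mrps2 and Mrps30 (higher) and Mrpl44 and Mrps21 (lower), and calls against BMDM_H alone Mrpl21, Mrpl30, Mrpl32, Mrpl37, Mrpl54, Mrps12, Mrps22 and Mrps27 (higher). For none of these 16 did the difference between BMDM_T and BMDM_H itself pass, the closest being Mrps12 (0.62 ± 0.25 SE, adjusted p = 0.187 by edgeR). Mrpl44 against BMDM_H was at -0.55 ± 0.24 (adjusted p = 0.0547 by edgeR) and passed in 6 of 20 alternatives. It passed with upper-quartile factors (adjusted p = 0.0473 by edgeR) and with the replicate number as a block (0.0241). It also passed without BMDM_H replicate 1, BMDM_H replicate 4, TAM replicate 3 or both BMDM_H libraries with the lowest totals (0.0499).

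**Figure D3:**
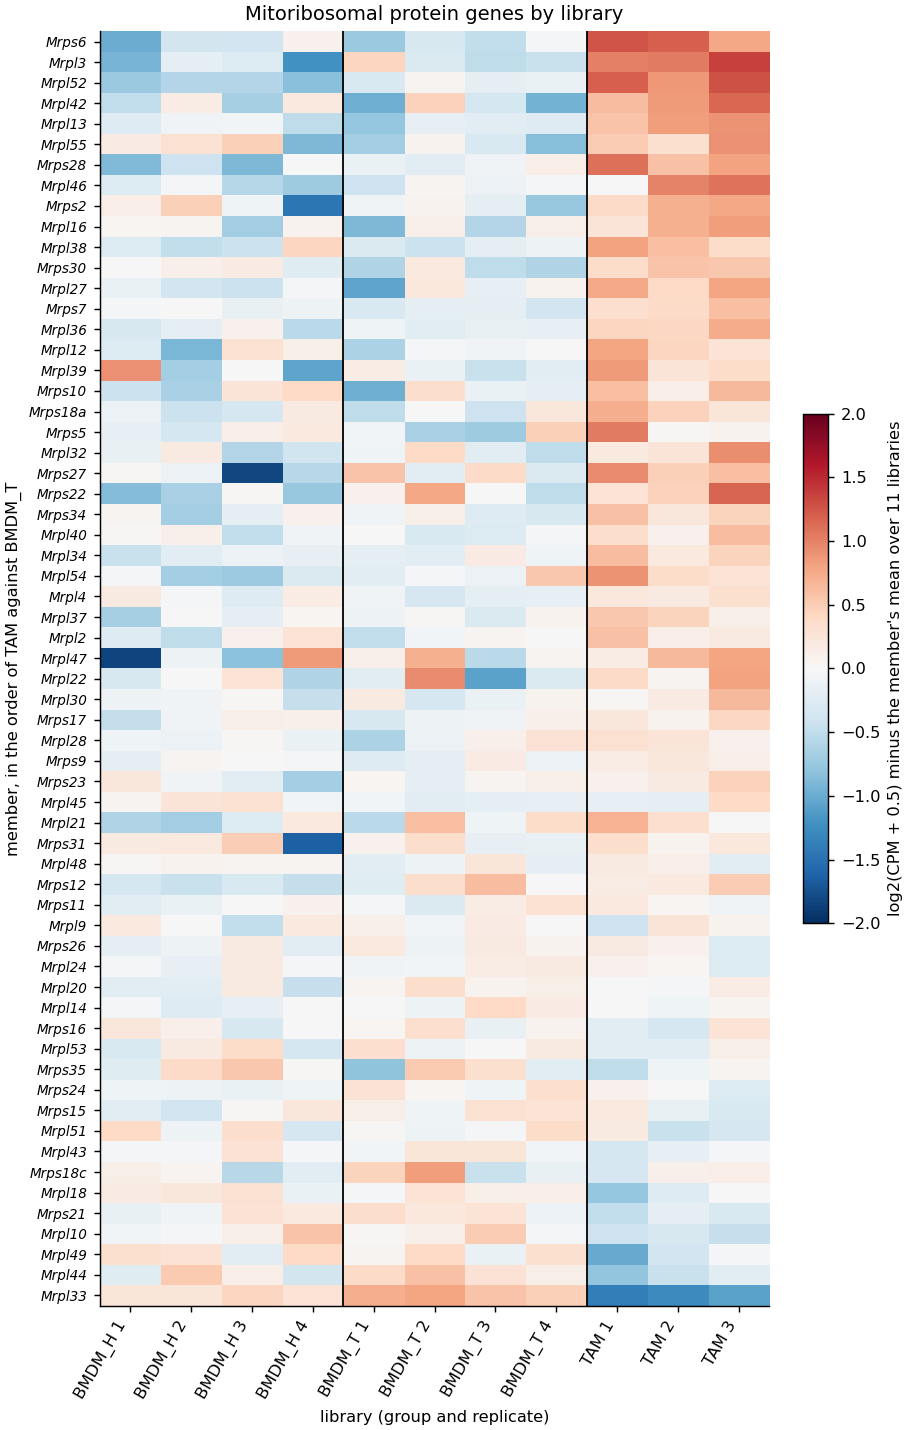
Level of the 62 tested members in each of the 11 libraries as log2(CPM + 0.5) minus the member's mean over the libraries, in the order of the fold change in TAM against BMDM_T. Red is above and blue below the mean. The TAM columns are red at the top and blue at the bottom, and colors in the BMDM_H and BMDM_T columns are mixed from row to row.

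BMDM_T against BMDM_H asks whether a tumor elsewhere in the body goes with a change in the marrow cells. Among the members 1 was called higher and 0 lower by edgeR's quasi-likelihood test, where 4.82% of all genes were called (2.82% higher and 2% lower). At an unadjusted p under 0.05 there were 5 higher and 1 lower of 62 members, and DESeq2 and limma-voom each called 1 higher and 0 lower. The median log2 fold change was 0.07 over the members, 42 of them above 0 (48.2% of all genes), and -0.04 with total counts as the scaling. The 1 member was Mrpl52, with a mean of 212 ± 21.6 CPM (SD, n = 4) among BMDM_T and of 144 ± 12.1 CPM (n = 4) among BMDM_H libraries, with no overlap (log2 fold change 0.55 ± 0.16 SE, adjusted p = 0.0445 by edgeR), where 2.59% of all genes were called higher with no overlap. Its call was kept in 10 of 20 alternatives. It was lost with upper-quartile factors (adjusted p = 0.0719), with total counts only (0.127), without BMDM_T replicate 2, 3 or 4, without any single BMDM_H library (0.0716 to 0.102), and without both BMDM_H libraries with the lowest totals (0.175). The log2 fold change stayed between 0.44 and 0.61. For Mrpl33 the means were 458 ± 44.3 CPM (BMDM_T) and 359 ± 23.0 CPM (BMDM_H), with no overlap, and did not pass (0.35 ± 0.14, adjusted p = 0.184 by edgeR). Of the 22 small-subunit genes 0 were called by edgeR, DESeq2 or limma-voom, 2 had an unadjusted p under 0.05, and the smallest adjusted p was 0.187 (edgeR). On simulated data of this size the test recovered 53% of 2-fold and 93% of 4-fold changes over all genes, and smaller changes were not simulated.

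Summed over all 68 members, the level was 4304 ± 152 CPM in BMDM_H (SD, n = 4, range 4198 to 4521), 4708 ± 196 CPM in BMDM_T (n = 4, 4417 to 4843) and 5370 ± 260 CPM in TAM (n = 3, 5079 to 5576). The TAM libraries lay above all marrow libraries, while the marrow groups overlapped. As a share of all counts in a library, members took 0.434 ± 0.0224% in BMDM_H, 0.443 ± 0.0320% in BMDM_T and 0.560 ± 0.0164% in TAM. Without Mrpl33 and Mrpl52 the sums were 3801, 4038 and 4739 CPM, in the same order.

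By subunit, 40 large-subunit and 22 small-subunit members were tested. In TAM against BMDM_T, 16 large-subunit members were higher and 4 lower (median log2 fold change 0.42), and 5 small-subunit members were higher and 1 lower (0.26). Against BMDM_H the counts were 16 and 3 for the large (0.46) and 7 and 0 for the small subunit (0.35), where 0 small-subunit members were lower also by DESeq2, limma-voom and at an unadjusted p under 0.05. The large-subunit genes summed to 3453 ± 169 CPM in BMDM_T (SD, n = 4) and 3989 ± 220 CPM in TAM (n = 3), and the small-subunit genes to 1256 ± 29.7 and 1381 ± 51.9 CPM. The ratio of the large to the small sum was 2.65 to 2.81 in BMDM_H, 2.64 to 2.82 in BMDM_T and 2.82 to 3.02 in TAM. The ranges of TAM and BMDM_T overlapped, with TAM replicate 1 at 2.818 below BMDM_T replicate 2 at 2.823. By origin, 13 of 38 members with a bacterial homolog were higher and 4 lower in TAM against BMDM_T, and 8 of 24 without one were higher and 1 lower. Of all genes tested 30.1% were higher and 28.7% lower in that comparison (28% and 28.3% against BMDM_H). In it the higher share was 40% of the large-subunit and 22.7% of the small-subunit members, 34.2% of those with a bacterial homolog and 33.3% of those without, the last pair being near that of all genes. The lower share was 4.55 to 10.5% in these sets. Mrps18a, called higher, was counted without a bacterial homolog and Mrps18c with one, although both descend from 1 bacterial protein. The counts by origin depend on this placing. The differences between subunits and between origins were not tested.

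**Figure D4:**
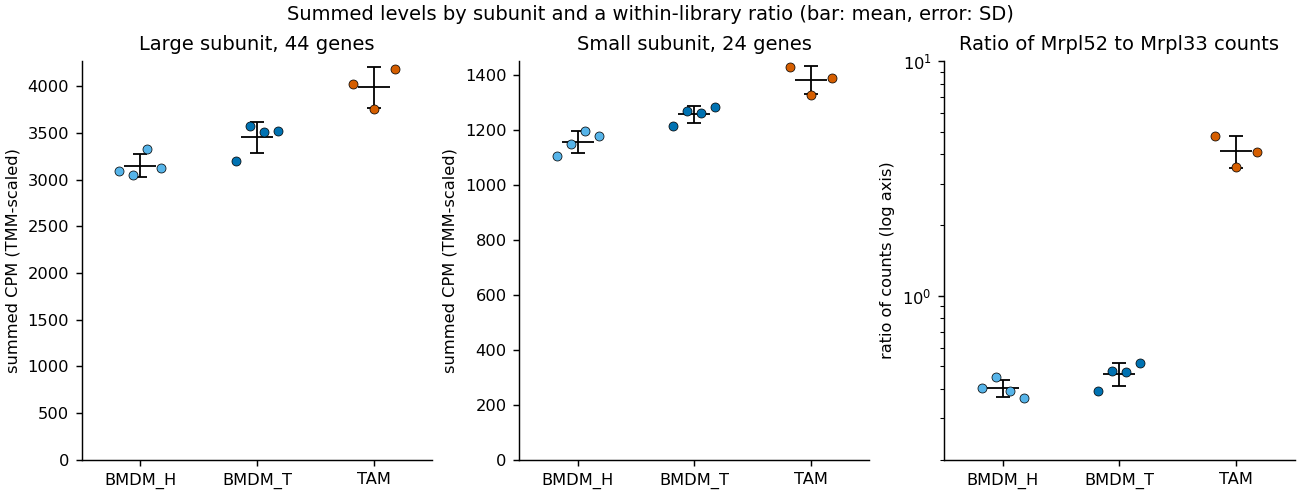
Summed level of the 44 large-subunit genes and the 24 small-subunit genes in each library, in CPM on TMM-scaled totals, and the ratio of Mrpl52 to Mrpl33 counts on a log axis. Points are libraries, the long bar is the mean and the error bar the SD (n = 4, 4 and 3). The sums are highest in TAM, and the ratio is 3.54 to 4.80 in TAM and 0.368 to 0.519 in the marrow libraries.

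Several members with many counts did not pass in any comparison. Mrpl14, a large-subunit part, was at 278 ± 23.7 CPM in BMDM_H, 328 ± 50.7 CPM in BMDM_T (SD, n = 4 each) and 298 ± 15.6 CPM in TAM (n = 3). Mrps24 was at 155 ± 1.70, 186 ± 25.7 and 161 ± 20.5 CPM, and Mrps26 at 124 ± 16.0, 138 ± 12.9 and 131 ± 21.0 CPM, both of the small subunit. In all of these the TAM libraries overlapped those of BMDM_T. Mrps17, also small-subunit, was at 88.7 ± 10.5 CPM in BMDM_T and 112 ± 13.1 CPM in TAM (log2 fold change 0.34 ± 0.17 SE, adjusted p = 0.1001 by edgeR). It passed with the replicate number as a block (adjusted p = 0.0453 by edgeR) and with total counts as the scaling (0.0243).

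Among the paralogs that descend from 1 bacterial protein, Mrps18a and Mrps18c had a row and Mrps18b was not analysed here. Mrps18a, now a large-subunit part, had 59.2, 84.1, 63.5 and 99.2 CPM in BMDM_T, 78.0, 62.7, 66.9 and 96.3 CPM in BMDM_H and 140, 117 and 99.8 CPM in TAM. TAM lay above both marrow groups by a small gap (0.62 ± 0.20 SE, adjusted p = 0.0103, against BMDM_T, and 0.67 ± 0.20, adjusted p = 0.00827, against BMDM_H, by edgeR), and without TAM replicate 1 the adjusted p against BMDM_T was 0.0660. Mrps18c, the small-subunit paralog, was at 39.7 ± 16.0 CPM in BMDM_T (SD, n = 4) and 32.7 ± 5.72 CPM in TAM (n = 3) and did not pass. The difference between the paralogs was not tested.

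The 6 members that did not pass the low-count filter were Mrpl11, Mrpl15, Mrpl23, Mrpl50, Mrps14 and Mrps33. Their group means were 0 to 7.45 CPM, Mrpl50 being the highest, and Mrpl11 had 0 counts in BMDM_H, 1 in BMDM_T and 8 in TAM. Between 64 and 68 of the 68 members had at least 1 count in a library. GENCODE holds 10 further genes of these names (Mrpl1, Mrpl17, Mrpl19, Mrpl35, Mrpl41, Mrpl57, Mrpl58, Mrps18b, Mrps25 and Mrps36) without a row under these symbols. Mrpl58 is a newer symbol of Ict1, which has a row, is counted below among parts with other symbols and did not pass in any comparison. The others were not analysed here.

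Mitoribosome parts with other symbols were called in both directions as well. Of 4 tested genes 1 was higher and 2 were lower in TAM against BMDM_T, and 1 higher and 1 lower against BMDM_H. Among all genes tested 30.1% were higher and 28.7% lower against BMDM_T, and 28% and 28.3% against BMDM_H. Chchd1, a small-subunit part, was higher, at 34.6 to 63.9 CPM in the BMDM_T and 67.8 to 97.2 CPM in the TAM libraries, with a log2 fold change of 0.80 ± 0.21 (SE; adjusted p = 0.00325 by edgeR). Aurkaip1, also of the small subunit, was lower (259 ± 37.8 and 175 ± 23.3 CPM, -0.56 ± 0.18), as was Gadd45gip1, of the large subunit (11.9 ± 4.58 and 4.00 ± 0.727 CPM, -1.54 ± 0.49).

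Genes that build the mitoribosome or modify its RNA numbered 17 tested of 21 with a row. Of these 4 were higher and 1 lower in TAM against BMDM_T, with a median log2 fold change of 0.43, and 4 were higher and 2 lower against BMDM_H. That is 23.5% higher and 5.88% lower against BMDM_T, where all genes had 30.1%, 28.7% and a median of 0.03. Against BMDM_H it is 23.5% and 11.8%, where all genes had 28% and 28.3%. Mrm1, a methyltransferase of the large ribosomal RNA, was at 14.0 ± 5.06 CPM in BMDM_T (SD, n = 4) and 51.8 ± 8.23 CPM in TAM (n = 3; log2 fold change 1.88 ± 0.26 SE, adjusted p = 3.21e-06 by edgeR). Ddx28, an RNA helicase of large-subunit assembly, was higher by 1.17 ± 0.23, and Ngrn was lower by a log2 fold change of -0.79 ± 0.18.

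Among genes that act on or with the ribosome, the lists of translation factors, tRNA charging and RNA processing had calls in TAM in the higher direction. Together 12 of 34 tested genes (35.3%) were higher against BMDM_T and 10 (29.4%) against BMDM_H, shares near the 30.1% and 28% of all genes. Of 9 tested translation factors 3 were higher and 0 lower against each marrow group. Against BMDM_T these were Pdf, a peptide deformylase (11.3 ± 3.20 to 29.7 ± 6.55 CPM, log2 fold change 1.38 ± 0.29 SE), Gfm1, an elongation factor (0.95 ± 0.24), and Lrpprc, a protein that stabilises mitochondrial messenger RNA (1.02 ± 0.30). Of 14 tested genes for charging mitochondrial tRNA 6 were higher and 0 lower against each, with median log2 fold changes of 0.51 and 0.61. Kars, which serves cytosol and mitochondria, rose by 0.77 ± 0.18 against BMDM_T, from 78.6 ± 9.89 to 134 ± 8.85 CPM, Iars2 by 1.17 ± 0.31 and Gatb by 1.10 ± 0.29. Of 11 tested RNA processing genes 3 were higher and 0 lower against BMDM_T (Pus1, Trit1 and Trmu), and 1 higher and 0 lower against BMDM_H (Elac2). The share of all genes called lower was 28.7% and 28.3% in these comparisons. Over the lists together 0 of 34 genes were lower against either marrow group, also by DESeq2, limma-voom and at an unadjusted p under 0.05. The lists hold few tested genes, and whether they differ from other genes was not tested.

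Genes of mitochondrial DNA upkeep and of its control were called in both directions. Of 7 tested genes of mitochondrial DNA maintenance and transcription 2 were higher and 1 lower in TAM against BMDM_T, and 1 higher and 1 lower against BMDM_H. Among all genes tested 30.1% were higher and 28.7% lower against BMDM_T, and 28% and 28.3% against BMDM_H. Polg, the catalytic subunit of the mitochondrial DNA polymerase, went from 79.1 ± 10.9 CPM in BMDM_T (SD, n = 4) to 38.4 ± 8.21 CPM in TAM (n = 3; log2 fold change -1.06 ± 0.19 SE, adjusted p = 9.31e-05 by edgeR). Its accessory subunit Polg2 was higher, at 3.56 ± 1.81 and 12.9 ± 4.99 CPM (1.85 ± 0.43), and so was the topoisomerase Top1mt (2.00 ± 0.51), both on few counts. Of 10 tested regulators of mitochondrial biogenesis 2 were higher and 4 lower against BMDM_T, and 1 higher and 4 lower against BMDM_H. Their shares were 20% higher and 40% lower against BMDM_T, and 10% and 40% against BMDM_H. Whether these lists differ from all genes was not tested. Lower against both were Max (-1.41 ± 0.18), Nrf1 (-1.09 ± 0.20), Tfeb (-1.45 ± 0.22) and Esrra (-0.46 ± 0.15; values against BMDM_T). The coactivator genes Ppargc1b (2.08 ± 0.47) and Pprc1 (1.44 ± 0.36) were higher against BMDM_T, and of these Pprc1 did not pass against BMDM_H. Esrra, Ppargc1b and Pprc1 are named after their values were seen, as are Gabpa and Myc. Gabpa, whose product binds the ETS core, was at 24.2 ± 8.16 CPM in BMDM_T and 19.2 ± 3.48 CPM in TAM and did not pass, nor did Myc. Between BMDM_T and BMDM_H 0 of the 72 tested genes of these mitochondrial lists were called by edgeR, DESeq2 or limma-voom, and 5 had an unadjusted p under 0.05 (2 higher and 3 lower). Only 4.82% of all genes tested were called there by edgeR, so the 0 is not read as particular to these lists. The 13 proteins encoded by mitochondrial DNA have no row, so the products of this ribosome were not analysed here.

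Markers of other cells and of cell division moved with the TAM comparisons, and their part in the values above was not tested. All 11 neutrophil and all 7 granulocyte precursor genes were lower and all 11 macrophage genes higher in TAM against each marrow group. Granulocyte precursor genes summed to 32.1 to 40.0 CPM in TAM and 2959 to 10763 CPM in marrow. Of 17 tested proliferation genes 16 were lower in TAM against BMDM_T and 15 against BMDM_H, with sums of 903 to 979 CPM in TAM and 2118 to 3118 CPM in marrow. The higher members in TAM therefore stood beside lower proliferation genes. Genes of epithelial and tumor cells summed to 63.9 to 99.7 CPM in TAM and 11.8 to 57.6 CPM in marrow, and those of fibroblast and endothelial cells to 67.7 to 100 CPM and 11.2 to 50.9 CPM. The 6 genes of eosinophils, basophils and mast cells summed to 0.259 to 1.06 CPM in TAM and 302 to 608 CPM in marrow, with Prg2, Ear1, Prss34 and Fcer1a at 0 counts in TAM and Epx and Mcpt8 at 1 and 3. The 4 T and NK cell genes summed to 8.89 to 18.6 CPM in TAM and 195 to 314 CPM in marrow, and both that could be tested were lower against each marrow group. Beside the Mrpl52 difference between the marrow groups, 5 of 7 granulocyte precursor genes and 3 of 11 neutrophil genes were higher in BMDM_T, while 6 of 8 monocyte genes, 4 of 11 macrophage genes and all 7 red cell precursor genes were lower and 1 macrophage gene was higher. Of the T and NK cell genes Nkg7 was higher (1.22 ± 0.19 SE, adjusted p = 0.000434 by edgeR) and Cd3d did not pass (-0.66 ± 0.21). The 17 tested proliferation genes had 0 calls there by edgeR and limma-voom, 1 higher by DESeq2 and 2 higher at an unadjusted p under 0.05, and the part of these cell types in the Mrpl52 value was not tested.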

How the data were processed

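RNA was measured in 17 libraries of sorted cells, of which the 11 of batch 1 were used. The authors deposited raw counts, 1 value per gene and library, for 24421 rows, of which 10207 name a gene. Per the submitters' processing notes the authors used bcl2fastq, STAR 2.4.2a and HTSeq with mm10. Reads carried molecular identifiers, per the labels' protocols, but not given in the sources used here are the collapse of these identifiers, the gene models, the use of strand and any removal of genes. Spreadsheet conversion had turned 17 symbols into dates. The members, the lists of other genes and the tests were chosen with earlier results of these data known.

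Counts were fitted in R 4.3.3 with edgeR 4.0.16 (filterByExpr, TMM factors, estimateDisp, glmQLFit and glmQLFTest) over all 11 libraries, with the group as the term and no covariate. Benjamini-Hochberg adjustment ran over all 7518 genes tested, and an adjusted p under 0.05 was a call. SE was obtained from the unshrunken log2 fold change and the F statistic (ratio of the change to the root of F), and SD is over libraries. On simulated data the 2-fold and 4-fold changes recovered were 53 and 93% (BMDM_T against BMDM_H), 64 and 89% (TAM against BMDM_T) and 53 and 91% (TAM against BMDM_H), with 7 false calls each. Each simulation changed 100 genes 2-fold and 100 genes 4-fold among 7518. Far more genes were called in the real TAM comparisons, so these percentages may not carry over to them. Replicates differed by more than sampling noise (chi-square per degree of freedom 2.67 to 14.62), and no libraries were merged. Because nothing in the labels ties a replicate to a mouse of its own, p-values reflect the spread between libraries, possibly a technical one.

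Per comparison 20 alternatives were run: RLE, upper-quartile or no scaling factors, no filter, DESeq2 1.42.0, limma-voom (limma 3.58.1), only the groups compared, the replicate number as a block, each of 11 libraries left out, and both BMDM_H libraries with the lowest totals (replicates 3 and 4) left out. Deviations of same-numbered libraries from their group means correlated at 0.220, 0.242, 0.133 and 0.132 between BMDM_T and BMDM_H (over the limit of 0.1 for a pairing, although the labels do not say what a number shares), at -0.034 to 0.075 between TAM and BMDM_T and at -0.053 to 0.069 between TAM and BMDM_H. Named members are, per comparison, the 8 largest rises and the 8 largest falls among called members whose libraries did not overlap and whose higher group reached 10 CPM, the 3 members with the highest mean CPM per subunit, the Mrps18 paralogs, and members called in opposite directions. Up to 3 called genes per list and comparison were named by p, and further ones are marked as chosen after their values were seen. 1 list of cell markers is not reported here. Positions are from GENCODE M21 (GRCm38) and promoters from RefSeq (GRCm38.p6).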

Additional observations from a re-analysis of the deposited data

Results flagged for a closer look

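In groups of 4 libraries, a library that lay far outside the other 3 by Dixon's test was found in 4 of the 124 groups of tested members, where chance gives about 1 in 20. Mrpl12, a stalk protein of the large subunit, had 66.8 CPM in BMDM_T replicate 1, against 98.1 to 103 CPM in the other BMDM_T libraries. Mrpl16 had 7.44 CPM in BMDM_H replicate 3, against 12.7 to 13.0 CPM in the other BMDM_H libraries, and Mrpl43 had 195 CPM in the same library, against 155 to 156 CPM. Mrps30 had 28.6 CPM in BMDM_T replicate 2, against 16.2 to 17.3 CPM. None of the 42 groups tested for the members named by the rule was marked. Without BMDM_T replicate 1 Mrpl12 no longer passed in TAM against BMDM_T, while Mrps30 passed in all 20 alternatives of that comparison.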

How the results depend on the processing

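No called member changed the sign of its fold change in any of the 20 alternatives. The lists of other genes were run only with edgeR, DESeq2 and limma-voom. In BMDM_T against BMDM_H the 1 higher member became 0 with upper-quartile factors, with total counts only and without both BMDM_H libraries with the lowest totals, and was 0 to 1 with single libraries left out. Its median log2 fold change of 0.07 was -0.04 with total counts only. In TAM against BMDM_T the 5 lower members became 2 with total counts only and 3 with DESeq2, and were 3 to 5 with single libraries left out. The cause was not tested. With total counts only the higher and lower members there were 30 and 2 in place of 21 and 5, and the median was 0.55 in place of 0.41, while the median of all genes moved from 0.03 to 0.18. Single libraries left out gave 16 to 22 higher members in TAM against BMDM_T, and 18 to 25 higher and 2 to 4 lower in TAM against BMDM_H. With the replicate block, members were 1 higher and 0 lower in BMDM_T against BMDM_H, 25 and 5 in TAM against BMDM_T and 23 and 4 in TAM against BMDM_H. Of the members called, 15 of 26 in TAM against BMDM_T and 14 of 26 in TAM against BMDM_H passed in all 20 alternatives, among them Mrpl33, Mrpl52, Mrpl3, Mrpl13, Mrpl42, Mrpl46, Mrps6 and Mrps28 in both. Depth limits members under about 10 CPM, such as Mrps2, Mrps22 and Mrps27, which have 1 to 14 counts in a BMDM_H library.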
